A study of Solanum lycopersicum with 15 samples.

Results

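A set of 66 genes was lower in *slexo1* hairy roots of tomato than in every other library of the series, while *slscz* roots stayed near the wild-type level. The genes were chosen by their measured values among the 34688 genes of the count table. Counts were divided by the library total and multiplied by 1e+06 to give CPM, and values were compared as log2(CPM + 1). A gene was kept where all 6 *slexo1* libraries lay below the other 9, the *slexo1* mean lay at least 0.6 below the wild-type mean, and the *slscz* mean lay within 0.4 of it. The levels of these genes in *slexo1*, *slscz* and wild type, and every difference among the 3 genotypes, are therefore a description of what was selected on. The difference between the independent lines of a genotype was not itself a condition. It was restricted all the same, since all libraries of both lines had to lie on 1 side. For genes chosen without a given library, its own position did not enter the choice, but the other libraries of its line did.

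SlEXO1 is a zinc finger transcription factor and SlSCZ is the tomato counterpart of SCHIZORIZA, a heat shock factor family protein that acts in ground tissue patterning in Arabidopsis. The exodermis is the outermost cortical layer of the tomato root. Its cells deposit a cap of lignin on the side that faces the epidermis, and the endodermis deposits the ring-shaped Casparian strip. Among regulators of ground tissue, the BIRD zinc finger proteins, NUTCRACKER and MAGPIE among them, act with SHORT-ROOT and SCARECROW in Arabidopsis. MYB54 belongs to the Arabidopsis MYB factors tied to thickening of the secondary wall.

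All material was *Rhizobium rhizogenes*-induced hairy root tissue of the cultivar M82, and RNA came from the terminal 3 cm of 6 to 7 pooled root tips per library. The wild type was transformed without a vector, and the mutants were 2 lines of *slexo1* (*slexo1-hr6* and *slexo1-hr7*) and 2 of *slscz* (*slscz-hr5* and *slscz-hr12*), each a separate transformed root with edits in the gene it is named for. Every group had 3 libraries, described as biological replicates, so *slexo1* and *slscz* rest on 2 lines of 3 libraries each. Since each line began as 1 transformation event, differences between lines and effects of the editing cannot be told apart within a line. Libraries read the 3′ ends of transcripts, and a lower value in pooled root tips can mean fewer cells of a type or less RNA per cell, which cannot be told apart.

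The alleles of the 2 *slexo1* lines are shown because every gene described here had to be low in both. Both guides lie in the first exon of *SlEXO1* (Solyc09g011120) on chromosome 9, according to the guide table of the study. The sequences below run 5′ to 3′ as that table gives them. In the *slexo1-hr6* sequences the capital marks the first base after the stretch shared with the guide, which spans 14 bases at guide 2 and 13 bases at guide 3. In the *slexo1-hr7* sequences the capitals mark stretches on the opposite strand of the other site, 14 bases that match guide 3 and 12 bases that match the sequence of *slexo1-hr6* at guide 2.
guide 2: gagcacttggagggtgtata
slexo1-hr6 at guide 2: cacttggagggtgtTatatggccaccaag
slexo1-hr7 at guide 2: ggagggtgtTTGGAACCCCAGAG
guide 3: tgcctctggggttccaatta
slexo1-hr6 at guide 3: tctggggttccaaAttagggtttcttc
slexo1-hr7 at guide 3: TGGTGGCCATATttagggtttctt
The table lists *slexo1-hr6* with a 1 bp insertion at each guide and *slexo1-hr7* with several mutations. The lesions of *SlEXO1* thus differed between the lines, and low values in both lines were required by the rule.

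Library totals ran from 2726538 to 8942833 counts (median 4800487), with 3348833 to 8942833 in wild type, 3883733 to 6020934 in *slexo1* and 2726538 to 5873699 in *slscz*. Differences were fitted for 16189 genes with limma-voom on all 15 libraries, and genes with at least a 1.3-fold change were called where p, adjusted by Benjamini-Hochberg, did not exceed 0.05. *SlEXO1* itself held 15, 21 and 10 counts in wild type, 22, 18 and 24 in *slexo1-hr6*, 25, 20 and 27 in *slexo1-hr7*, 1, 23 and 14 in *slscz-hr5*, and 16, 19 and 16 in *slscz-hr12*. These groups overlapped, and reads from the 3′ end do not check edits in the first exon. On the CPM scale the median tested gene lay 0.13 higher in *slexo1* than in wild type (log2), and 0.03 higher with library sizes normalized by the trimmed mean of M values (TMM).

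In 296 of the 34688 genes, 0.853%, all 6 *slexo1* libraries lay below the other 9. Of these, 180 had a smaller fall than 0.6, 43 had a *slscz* mean more than 0.4 above wild type, 7 had one more than 0.4 below it, and 66 were kept. With TMM-normalized library sizes the same limits kept 110 genes, 64 of the 66 among them.

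**Figure D1:**
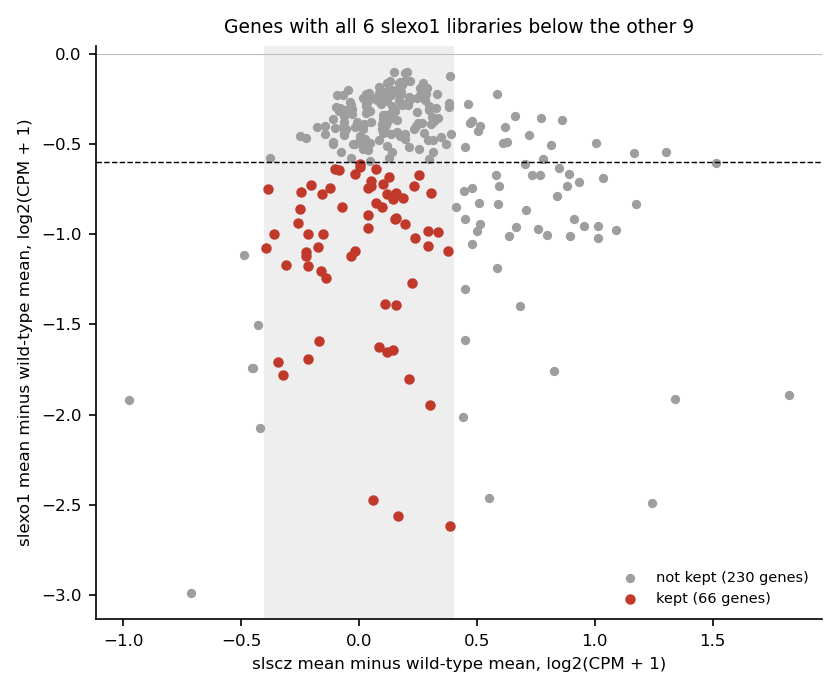
Mean difference from wild type on log2(CPM + 1) in *slexo1* (vertical axis) and in *slscz* (horizontal axis) for the 296 genes whose 6 *slexo1* libraries all lay below the other 9. Each point is a gene, the grey band and the dashed line are the limits of 0.4 and 0.6, and the 66 genes kept (red) lie in the band below the line, between -2.62 and -0.61.

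The falls of the 66 genes in *slexo1* ran from -2.62 to -0.61 with a median of -0.97 on log2(CPM + 1), and 29 genes fell short of wild type by 1 or more. On the linear scale the wild-type mean was 1.53 to 15.96 times the *slexo1* mean (median 2.08). The typical gene was therefore reduced rather than silent. The difference between *slscz* and wild type ran from -0.39 to 0.39 (median 0.05), with *slscz* above wild type in 38 genes and below it in 28.

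The distance between the highest *slexo1* library and the lowest of the other 9 was narrow for some genes and wide for others. It ran from 0.002 to 1.42 (log2, median 0.26), with 8 genes under 0.1 and 11 genes over 0.5. The widest was that of Solyc02g083700 and the narrowest that of Solyc01g079170.

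In the limma-voom fit, 63 of the 66 genes held enough counts to be tested, and 62 of these were called lower in *slexo1* than in wild type, beside 4.95% of all genes tested. All 63 were called lower in *slexo1* than in *slscz*, beside 11% of all genes. Both contrasts chose the genes, so nothing follows from these counts. The 1 gene not called was Solyc03g093390, and the 3 not tested were Solyc01g079170, Solyc06g082460 and Solyc04g077160, all with a wild-type mean under 1.5 CPM. For *slscz* against wild type, where the choice held the means together, 2 genes were called, both lower in *slscz*, beside 15.2% of all genes called in either direction. These were Solyc08g081530 and Solyc09g091210, described below.

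**Figure D2:**
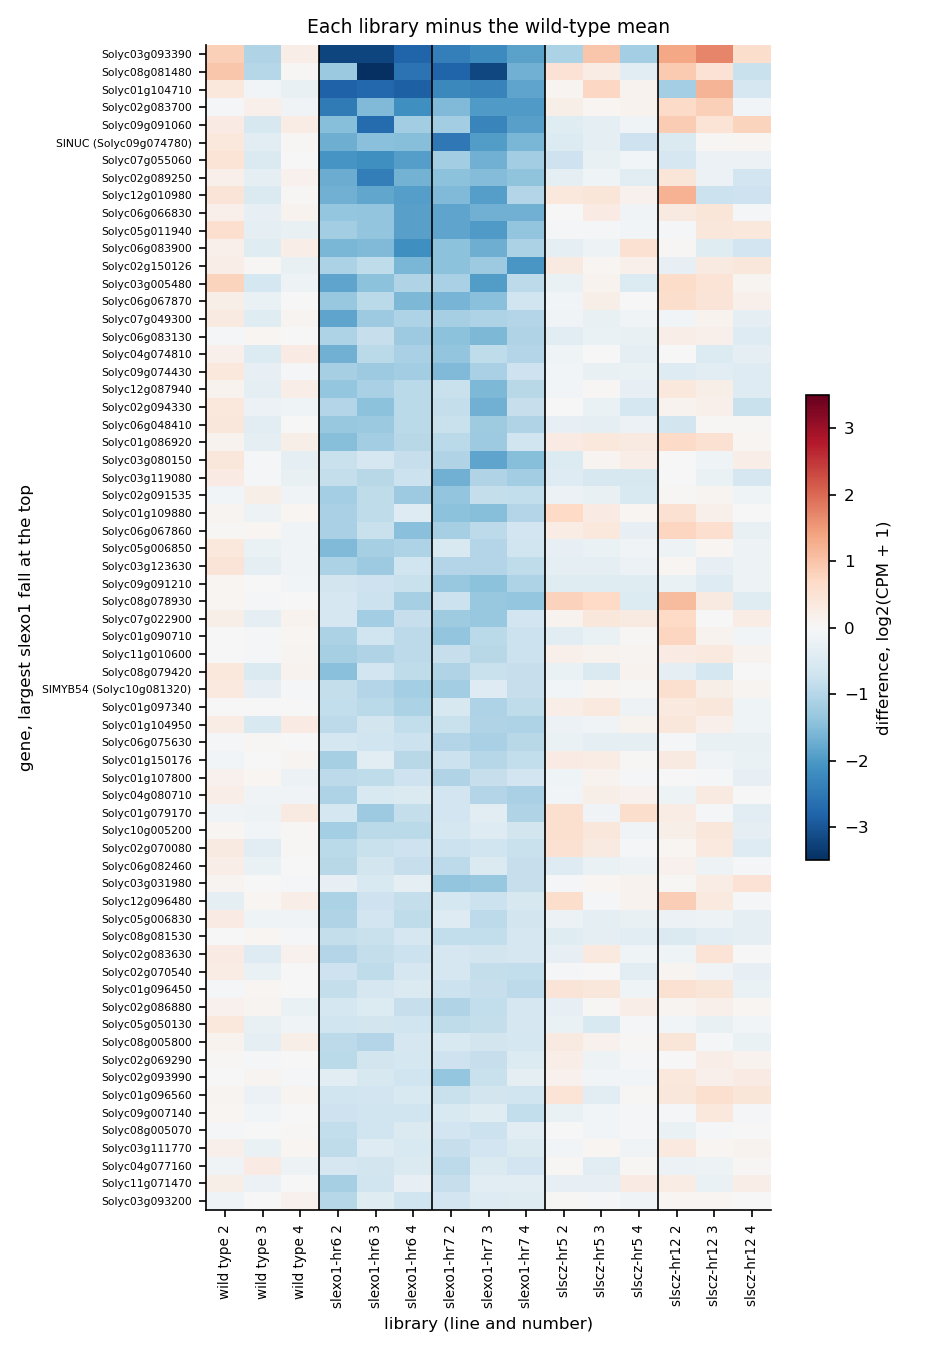
Value of each library after subtracting the mean of wild type, on log2(CPM + 1), with 1 row for each of the 66 genes and 1 column for each of the 15 libraries, and black lines between groups. The 6 *slexo1* columns are blue throughout, as the choice required, and the median of the 66 genes runs from -1.09 to -0.86 in these columns.

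The study names 2 of the 66 genes, both transcription factors from its set enriched in the exodermis. *SlNUC* (Solyc09g074780, chromosome 9), named like the Arabidopsis BIRD protein NUTCRACKER, held 27, 39 and 28 counts in wild type, or 8.06, 4.36 and 6.23 CPM. It held 6, 6 and 9 counts in *slexo1-hr6* and 1, 5 and 8 in *slexo1-hr7*. In *slscz-hr5* it held 11, 27 and 18 counts, and in *slscz-hr12* 15, 23 and 31. The highest *slexo1* library, at 1.54 CPM, lay well below the lowest of the others, at 3.23 CPM. Mean levels were 6.22 ± 1.85 CPM (SD, n = 3) in wild type, 1.11 ± 0.497 CPM (SD, n = 6) in *slexo1* and 4.76 ± 1.31 CPM (SD, n = 6) in *slscz*. The fitted log2 difference between *slexo1* and wild type was -2.45 (SE 0.37), given as a description. The 2 lines of *slexo1* differed by 0.79 (SE 0.59, adjusted p = 0.839 by limma-voom), which is within the spread of their libraries.

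*SlMYB54* (Solyc10g081320, chromosome 10), named for the MYB factor of secondary wall thickening in Arabidopsis, was lowered less. It held 36, 59 and 36 counts in wild type, which were 10.8, 6.60 and 8.01 CPM. The *slexo1-hr6* libraries held 22, 14 and 18 counts and the *slexo1-hr7* libraries 12, 35 and 26. The 2 *slscz* lines covered 7.70 to 12.8 CPM, the range of wild type and slightly above. The groups did not overlap, but the distance was small, with 5.81 CPM in the highest *slexo1* library and 6.60 CPM in the lowest other one. The mean was 8.45 ± 2.11 CPM (SD, n = 3) in wild type and 4.02 ± 1.04 CPM (SD, n = 6) in *slexo1*, and the fitted log2 difference was -1.07 (SE 0.22). The lines of *slexo1* differed by -0.32 (SE 0.31, adjusted p = 0.890), less than the spread within them.

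Both belong to the exodermis-enriched factors that the study edited in hairy roots. With them, 20 edited factors had a row in the count table. *SlMYB36-b* (Solyc04g077260) is counted among the 20, although the study edited it as a homologue of Arabidopsis MYB36. Of the 20 factors, 16 were tested. Of these, 3 were called lower in *slexo1*, *SlNUC* and *SlMYB54*, which the rule had chosen, and *SlWRK31* (Solyc05g007110). *SlWRK31* averaged 44.5 ± 1.86 CPM (SD, n = 3) in wild type, 36.9 ± 5.56 CPM (SD, n = 6) in *slexo1* and 29.8 ± 3.06 CPM (SD, n = 6) in *slscz*, and its log2 difference from wild type was -0.41 (SE 0.12, adjusted p = 0.0293) in *slexo1* and -0.63 (adjusted p = 0.0012) in *slscz*. In *slexo1*, 2 of the 16 were called higher, *SlSHN1* (Solyc01g005630) and *SlNAC041* (Solyc01g009860). *SlSHN1*, a relative of the SHINE factors that promote cutin and wax synthesis in Arabidopsis, averaged 3.02 ± 0.291 CPM (SD, n = 3) in wild type and 8.09 ± 2.09 CPM (SD, n = 6) in *slexo1*. Its log2 difference was 1.21 (SE 0.29, adjusted p = 0.0096), and *slscz* was higher as well, by 0.99 (adjusted p = 0.0258). *SlNAC041* was higher in *slexo1* by 0.44 (adjusted p = 0.0075) and lower in *slscz* by -0.53 (adjusted p = 0.0014). *SlMGP* (Solyc01g099340), named like the Arabidopsis BIRD protein MAGPIE, was called lower in *slscz*, with -1.03 there (adjusted p = 0.003) and 0.23 in *slexo1* (adjusted p = 0.473), with *slexo1* above *slscz* by 1.26 (adjusted p = 3.2e-05). Solyc03g093890, labelled *slmyb54-1* in a figure legend of the study, was also called lower in *slscz*, by -1.98 (adjusted p = 9.9e-06 by limma-voom). So were *SlMYB68* (Solyc11g069030), by -0.54 (adjusted p = 0.0008), and *SlMYB36-b*, by -0.75 (adjusted p = 0.0174). *SlATHB-5* (Solyc01g096320) was called higher in *slscz*, by 2.68 (adjusted p = 0.0217), and none of these was called in *slexo1*. The tests of *slexo1* and of *slscz* share the wild-type libraries. They hold no term for the line and take the 6 libraries of a genotype as independent. The p values against wild type, here and below, therefore measure the spread between libraries, with only 2 lines per genotype. The median log2 difference of the 16 factors, *SlMYB36-b* among them with -0.12, was -0.08 in *slexo1*, beside 0.03 over all genes tested.

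Genes that mark the endodermis and its strip were not among the 66. *SlCASP1* (Solyc06g074230), a scaffold protein of the Casparian strip, was lower in *slexo1*, at 15.4 ± 2.88 CPM (SD, n = 6) beside 27.1 ± 4.64 CPM (SD, n = 3) in wild type and 28.1 ± 6.87 CPM (SD, n = 6) in *slscz*. All its *slexo1* libraries lay below wild type, but the highest, at 19.9 CPM, lay above the lowest *slscz* library, at 19.4 CPM. The log2 difference of *SlCASP1* from wild type was -0.98 (SE 0.20, adjusted p = 0.0032). It was the only 1 of the 4 endodermis genes named by the study that was called in *slexo1*, the others being *SlSHR*, *SlMYB36* and *SlCASP2*. *SlCASP3* (Solyc09g010200), which the study places in several root layers, was also lower, by -0.74 (adjusted p = 0.0120). The other gene placed in several layers, the receptor gene *SlSGN3* (Solyc05g007230), differed from wild type by 0.11 (SE 0.17, adjusted p = 0.731) and was not called. Whether the part of these cell layers in the root tips moved with the 66 genes was not tested.

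The other 64 genes carry only tomato gene identifiers in the sources used here, so no role is given for them. Most of the largest falls belonged to genes of low abundance. Levels below are CPM of 3′ reads, which are counted per transcript end and not per length.

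Solyc03g093390 on chromosome 3 had the largest fall. It held 52, 31 and 44 counts in wild type, 0, 0 and 2 in *slexo1-hr6* and 3, 6 and 9 in *slexo1-hr7*. In *slscz-hr5* it held 9, 100 and 17 counts and in *slscz-hr12* 85, 108 and 63. All *slexo1* libraries were near 0, while the other libraries spread widely among themselves, from 3.05 to 29.3 CPM. The wild-type mean of 9.60 ± 6.03 CPM (SD, n = 3) was 15.96 times that of *slexo1*, 0.601 ± 0.6001 CPM (SD, n = 6). The fitted log2 difference was -3.94 with an SE of 1.28 (adjusted p = 0.0545), and the lines of *slexo1* differed by -2.78 (SE 1.84, adjusted p = 0.798). It was the gene closest to the upper limit for *slscz*, with a difference from wild type of 0.39.

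Solyc08g081480 and Solyc01g104710 followed, with falls of -2.56 and -2.47 on log2(CPM + 1). Solyc08g081480 held 26.2, 5.98 and 13.2 CPM in wild type, 4.67, 0 and 1.303 CPM in *slexo1-hr6* and 0.979, 0.542 and 3.32 CPM in *slexo1-hr7*. The other libraries of this gene, all *slscz*, lay between 7.06 and 25.3 CPM. Its counts were not whole in 93.3% of the libraries, as happens where reads fit several genes. Solyc01g104710 held 33, 61 and 27 counts in wild type and 1 count in each *slexo1-hr6* library, with 3, 4 and 8 counts in *slexo1-hr7*. In both lines the gene was almost silent, and the difference between the lines, -1.74 (SE 1.22, adjusted p = 0.812), was within error. The *slscz* libraries held 10 to 76 counts of it.

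Solyc02g083700 on chromosome 2 separated the groups most clearly of all 66. It held 18, 58 and 23 counts in wild type, 1, 5 and 3 in *slexo1-hr6*, 5, 4 and 4 in *slexo1-hr7*, 18, 35 and 35 in *slscz-hr5*, and 36, 40 and 25 in *slscz-hr12*. The highest *slexo1* library was at 1.29 CPM and the lowest other one at 5.12 CPM. Wild type was even, at 5.66 ± 0.726 CPM (SD, n = 3), against 0.765 ± 0.433 CPM (SD, n = 6) in *slexo1*.

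Solyc09g091060 and Solyc12g010980 were the other 2 genes among the 10 largest falls with a wild-type mean under 10 CPM that the study does not name. Solyc09g091060 held 4.58 to 8.96 CPM in wild type and 0.257 to 2.55 CPM in *slexo1*. Solyc12g010980 held 17, 19 and 16 counts in wild type and 2, 1, 1, 2, 1 and 7 in the 6 *slexo1* libraries. Its lowest other library, *slscz-hr12* number 3, held 1.63 CPM, close to the 1.18 CPM of the highest *slexo1* library, so its separation was among the less certain at these counts.

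The remaining 3 of the 10 largest falls were well covered. Solyc07g055060 on chromosome 7 held 441, 583 and 427 counts in wild type, or 132, 65.2 and 95.1 CPM. It held 21.4, 20.3 and 23.8 CPM in *slexo1-hr6* and 39.5, 28.4 and 39.96 CPM in *slexo1-hr7*. The hr7 libraries thus lay above all hr6 libraries, although the difference of -0.70 (SE 0.25) was not called (adjusted p = 0.484). Solyc02g089250 held 54.9, 38.8 and 53.6 CPM in wild type and 8.24 to 17.8 CPM in *slexo1*, with the *slscz* libraries at 30.2 to 65.9 CPM. Solyc06g066830 on chromosome 6 held 126, 90.7 and 122 CPM in wild type, 42.9, 42.2 and 29.2 in *slexo1-hr6* and 30.4, 33.9 and 34.3 in *slexo1-hr7*. Its *slscz* libraries ran from 103 to 151 CPM, and its lines of *slexo1* differed by 0.15 (SE 0.19, adjusted p = 0.913).

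**Figure D3:**
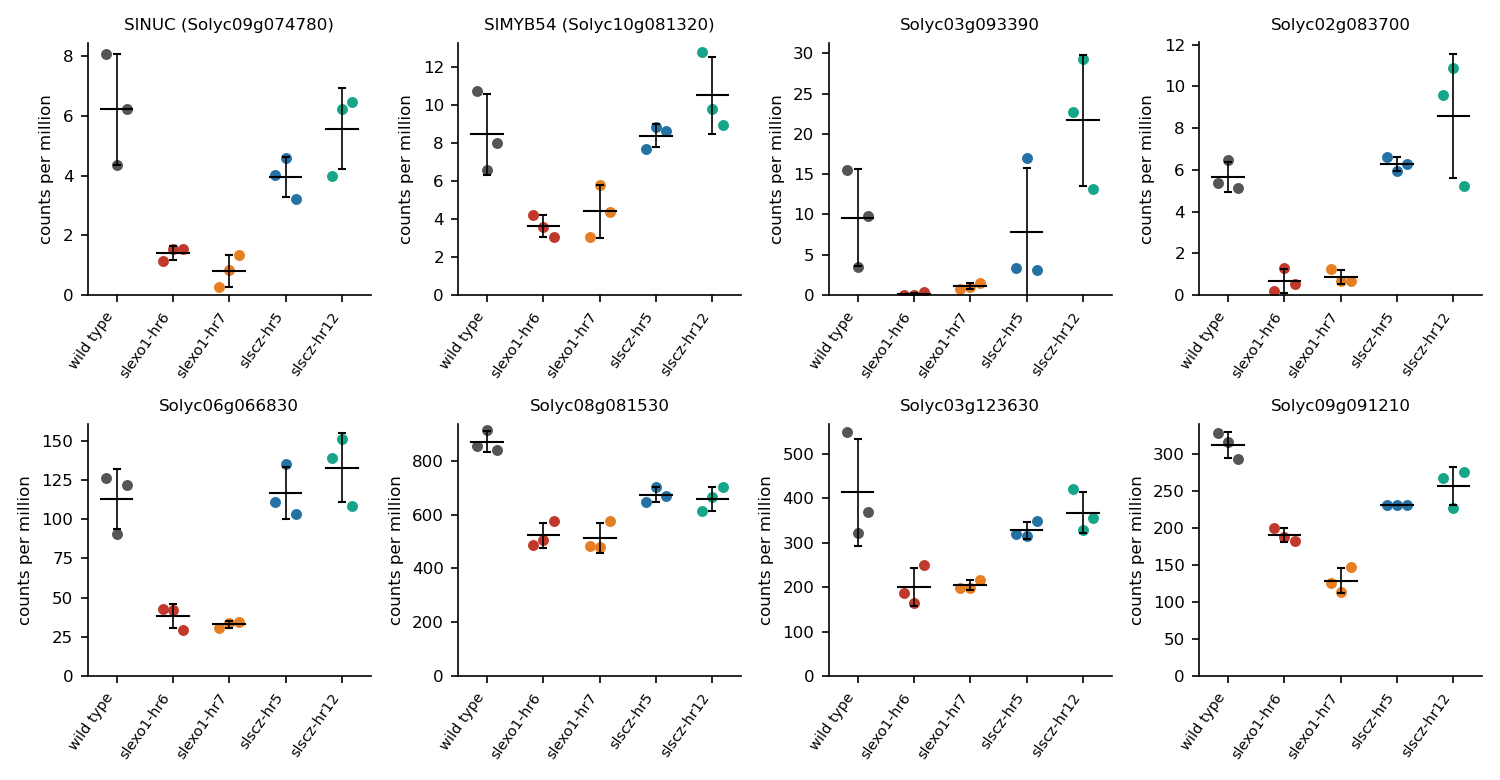
CPM in each of the 15 libraries for 8 of the genes, with points for libraries, horizontal lines for group means and bars of 1 SD (n = 3 per group, cut off at 0). *SlNUC* and Solyc02g083700 show a wide distance between *slexo1* and the rest, Solyc08g081530 lies lower in *slscz* than in wild type and lower again in *slexo1*, and Solyc09g091210 lies lower in *slexo1-hr7* than in *slexo1-hr6*.

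By wild-type level the 66 genes spanned 1.38 to 871 CPM with a median of 31.0 CPM. Of these, 17 lay under 10 CPM, 31 between 10 and 100 CPM and 18 at 100 CPM or more. The 63 tested genes had a median of 33.7 CPM in wild type, beside 13.9 CPM over all genes tested. The rule asked for 15 libraries in strict order, so the level of a gene bears on whether it could be kept.

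The 8 most abundant genes had wild-type means 1.66 to 2.04 times those of *slexo1*. Solyc08g081530 on chromosome 8 was the most abundant, with 857, 916 and 841 CPM in wild type, 487, 506 and 575 CPM in *slexo1-hr6* and 483, 481 and 577 CPM in *slexo1-hr7*. The *slscz* libraries lay between the 2 groups, at 613 to 704 CPM, and overlapped with neither. Solyc08g081530 averaged 871 ± 39.2 CPM (SD, n = 3) in wild type, 518 ± 45.5 CPM (SD, n = 6) in *slexo1* and 666 ± 34.0 CPM (SD, n = 6) in *slscz*. The fitted log2 difference was -0.87 (SE 0.08) in *slexo1* and -0.42 in *slscz*, which makes it a gene lowered in both mutants, by different amounts, that still met the limit of 0.4 on the CPM scale. Between the 2 lines of a genotype the differences were within error, at 0.008 (SE 0.10, adjusted p = 0.993) in *slexo1* and 0.08 in *slscz*.

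Solyc02g086880 held 720, 686 and 545 CPM in wild type and 311 to 459 CPM in *slexo1*, with *slscz* at 527 to 756 CPM, across the wild-type range. Solyc05g050130 held 648, 418 and 463 CPM in wild type and 269 to 332 CPM in *slexo1*. Its lowest *slscz* library, at 347 CPM, was close to the *slexo1* range, and its counts were not whole in any library. Without wild-type library 2, the highest, its fall was -0.54, short of the limit of 0.6, and without wild-type library 3 it was -0.86, beside -0.73 over all libraries.

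Solyc03g123630 on chromosome 3 held 549, 322 and 369 CPM in wild type and 165 to 249 CPM in *slexo1*. Solyc06g075630 was even within groups, with 360, 378 and 364 CPM in wild type, 240, 227 and 217 CPM in *slexo1-hr6* and 182, 166 and 188 CPM in *slexo1-hr7*. Its *slscz* libraries, at 290 to 348 CPM, all lay below wild type and above *slexo1*. The log2 difference between *slscz* and wild type was -0.29 (adjusted p = 0.0432 by limma-voom), not called because it fell short of 1.3-fold. The hr7 libraries of Solyc06g075630 all lay below those of hr6, and the log2 difference of 0.34 (SE 0.09) was not called (adjusted p = 0.220). Solyc01g150176 and Solyc01g096450, both on chromosome 1, held 327 to 367 and 314 to 344 CPM in wild type and 155 to 268 and 175 to 231 CPM in *slexo1*. In *slscz* they ranged up to 434 and 479 CPM, above wild type in some libraries and below it in others.

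Some of the genes sat close to each other in the table, whose order mostly follows the identifiers along each chromosome. Within 10 places of the table, 5 pairs of neighbouring members were found. The closest group was Solyc06g066830, Solyc06g067860 and Solyc06g067870 on chromosome 6, with 3 genes of almost no counts between the first and the other 2. Solyc06g067860 held 70.5, 71.3 and 62.3 CPM in wild type and 24.0 to 42.5 CPM in *slexo1*. Solyc06g067870 held 83.0, 60.5 and 72.1 CPM in wild type and 22.5 to 43.3 CPM in *slexo1*. All 3 had *slscz* means above wild type, at 125, 83.1 and 84.7 CPM beside 113, 68.0 and 71.9 CPM. The expressed genes on either side were not called in *slexo1*, with log2 differences of -0.19 for Solyc06g066810 (adjusted p = 0.346) and -0.33 for Solyc06g067880 (adjusted p = 0.103). All 3 genes had whole counts in every library, and shared reads were not visible in them.

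The pair Solyc05g006830 and Solyc05g006850 on chromosome 5 was separated by 2 genes with almost no counts. Solyc05g006850 held 175, 115 and 124 CPM in wild type, 46.1, 59.7 and 64.1 CPM in *slexo1-hr6* and 93.4, 66.3 and 83.4 CPM in *slexo1-hr7*. Solyc05g006830 held 19.9 to 27.4 CPM in wild type and 10.3 to 15.95 CPM in *slexo1*. Both had counts that were not whole in some libraries, 66.7% of them for Solyc05g006850. The next gene, Solyc05g006855, was not chosen but was also called lower in *slexo1*, with 0.381 CPM there beside 1.71 CPM in wild type (log2 difference -1.97, adjusted p = 0.0349), at a level of few counts. The pairs Solyc08g081480 with Solyc08g081530 and Solyc02g083630 with Solyc02g083700 had expressed genes between them that were not called, such as Solyc08g081520 (0.41, adjusted p = 0.196) and Solyc02g083640 (-0.16, adjusted p = 0.437). Solyc02g083710, next to Solyc02g083700, was lower in *slexo1* by -0.34 (adjusted p = 0.0026 by limma-voom), short of 1.3-fold and so not called. Its 6 *slexo1* libraries all lay below the other 9. The tested genes next to the pair on chromosome 8 were not called. Over the genome, chromosomes 1 to 12 held between 2 and 11 of the 66 genes, with 11 each on chromosomes 1 and 2 and 2 each on chromosomes 10 and 11. The genes tested numbered 2109 and 1701 on chromosomes 1 and 2, and 1014 and 1075 on chromosomes 10 and 11. Identifiers numbered under chromosome 0 held 204 tested genes and 0 of the 66.

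Estimated counts are not whole where reads fit several genes. They were not whole in at least 1 library for 14 of the 66, or 21.2%, beside 13.9% of all genes tested. For 6 of them this held in all libraries, and for Solyc08g081480 in 93.3% of the libraries. Where counts were not whole, the share of a similar gene in the fall cannot be told apart. The other 52 had whole counts throughout, *SlNUC* and *SlMYB54* among them.

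The limits of the rule passed through a continuous distribution. The last genes kept were Solyc03g093200 with a fall of -0.61, Solyc11g071470 with -0.63 and Solyc04g077160 with -0.64. The first left out were Solyc03g083090 with -0.59, Solyc06g063240 with -0.58 and Solyc01g111370 with -0.58. At the limits for *slscz*, Solyc03g119080 was kept at -0.39 and Solyc09g072700 was left out at -0.42, although its fall in *slexo1* was -2.07. On the upper side Solyc03g044100 was left out at 0.41.

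That both lines and all 6 *slexo1* libraries were low was fixed by the choice. Mean falls ran from -3.07 to -0.37 (median -0.91) in *slexo1-hr6* and from -2.56 to -0.51 (median -0.97) in *slexo1-hr7*, and the median difference from the wild-type mean over the 66 genes ran from -1.09 to -0.86 in the single libraries. How far the 2 lines differed from each other was not itself a condition, but the demand that both be low restricts it. The 2 lines lay within 0.5 of each other in 59 of the 66 genes on log2(CPM + 1), and the largest distance was 0.91, for Solyc03g093390. Of the 63 tested members 88.9% lay within this distance, beside 93.9% of all genes tested. The hr6 mean was the lower one in 38 genes and the hr7 mean in 28. Among the tested members hr6 was lower in 57.1%, beside 47.5% of all genes tested, and in the limma-voom fit in 58.7%, beside 50.6%.

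Of the 63 tested genes, 1 was called different between *slexo1-hr6* and *slexo1-hr7*, beside 0.346% of all genes tested. This was Solyc09g091210 on chromosome 9, with 328, 317 and 294 CPM in wild type, 200, 188 and 182 CPM in hr6 and 125, 114 and 148 CPM in hr7. The *slscz* libraries held 228 to 276 CPM. Both lines were low, hr7 more so, and no libraries of the 2 lines overlapped. Group means were 190 ± 9.40 CPM (SD, n = 3) in hr6 and 129 ± 17.1 CPM (SD, n = 3) in hr7, and the log2 difference of hr6 over hr7 was 0.55 (SE 0.11, adjusted p = 0.0281 by limma-voom). The call was lost in most fits without 1 *slexo1* library, while the log2 difference stayed between 0.45 and 0.67. The adjusted p was 0.171, 0.0981 and 0.0771 without hr6 number 2, 3 or 4, 0.111 and 0.283 without hr7 number 2 or 3, and 0.00998 without hr7 number 4. It was 0.0619 in a fit of the 6 *slexo1* libraries alone. With all libraries it was 0.0324 by edgeR and 0.0019 by DESeq2, and 0.0168 by limma-voom with a replicate block over the 12 mutant libraries. The gene was also the second of those called lower in *slscz* than in wild type, by -0.39 (adjusted p = 0.0440).

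Without a threshold on the adjusted p, 8 of the 63 genes, or 12.7%, had an unadjusted p under 0.05 between the *slexo1* lines, beside 7.19% of all genes tested. The median absolute log2 difference between these lines was 0.23 for the 63 genes and 0.15 for all genes. Between *slscz-hr5* and *slscz-hr12*, 0 of the 63 were called by limma-voom, beside 0.105% of all genes, and 0 by edgeR and by DESeq2. An unadjusted p under 0.05 was reached by 2 of them, or 3.17%, beside 4.77% of all genes. The median absolute difference between the *slscz* lines was 0.14 for the 63 genes and 0.15 for all genes.

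**Figure D4:**
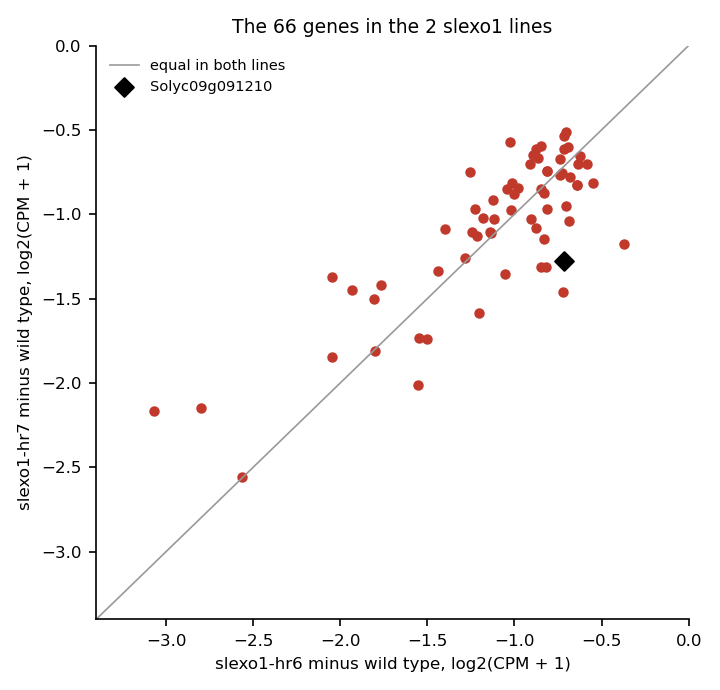
Mean difference from wild type on log2(CPM + 1) in *slexo1-hr6* (horizontal axis) and *slexo1-hr7* (vertical axis) for the 66 genes, with the line of equal values. Points lie on both sides of the line, 38 with the lower mean in hr6 and 28 in hr7, and the diamond marks Solyc09g091210, the gene called different between the lines.

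Each library could also be compared with genes chosen without it. The rule was applied to the other 14 libraries, and the library left out was then placed. For a *slexo1* library the question was in how many of the genes it lay below all 9 others, and for a wild-type or *slscz* library in how many it lay above all 6 *slexo1* libraries. Without a *slexo1* library the rule kept 68 to 80 genes, and the library left out lay below the 9 others in 84.6 to 92.6% of them, beside 7.51 to 11.9% of all genes tested. Without a wild-type library it kept 67 to 77 genes, and that library lay above the *slexo1* libraries in 89.6 to 97.0%, beside 10.3 to 15.9%. For *slscz* libraries the share was 84.3 to 98.6%, beside 18.2 to 24.2%. The 15 gene sets shared most of their members, with 58 to 66 of the 66 genes in each, and are not independent of each other. The other libraries of the same line also took part in each choice. All genes tested, in contrast, were not chosen for a separation of the other 14 libraries. The distance between the shares was therefore set in part by the choice, and no conclusion is drawn from it.

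**Figure D5:**
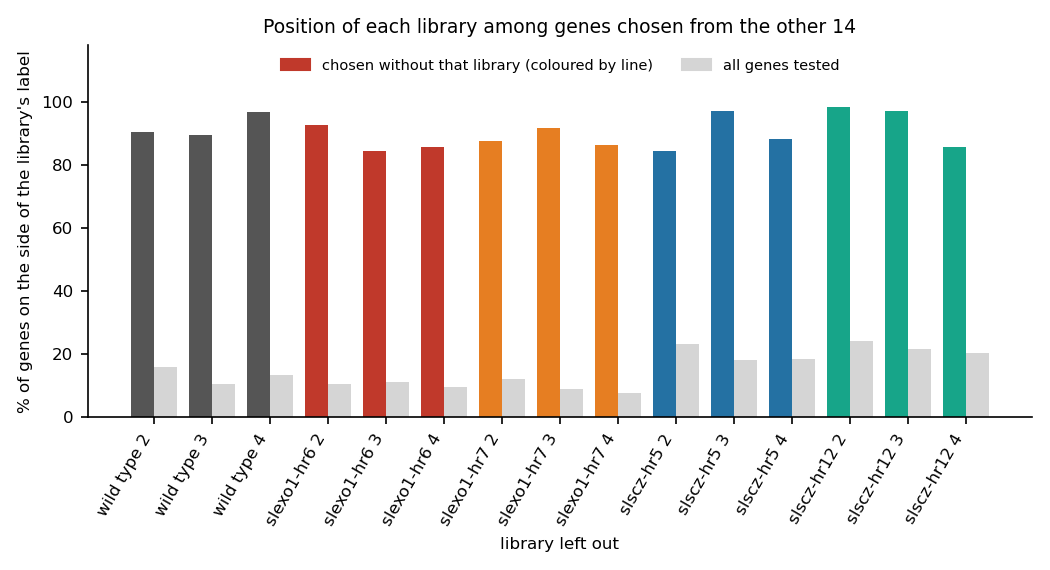
Share of genes, in percent, for which the library left out lay on the side of its label, for the genes chosen from the other 14 libraries (coloured bars, by line) and for all genes tested (grey bars). The coloured bars run from 84.3 to 98.6% and the grey bars from 7.51 to 24.2%.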

How the data were processed

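The authors trimmed reads, pseudo-aligned them to the ITAG 4.1 transcripts with kallisto (0.46.2 in the submitters' processing notes, while the methods give another version) and deposited the estimated counts, not normalized, as 1 table of genes. All 15 columns were used (0 unmatched). Wild-type columns carry the numbers 2 to 4, the labels 1 to 3, so they were used as a group, and libraries are numbered as in the table. CPM came from the deposited estimated counts. For tests, counts were rounded to whole numbers and fitted with limma 3.58.1 (voom, TMM from edgeR 4.0.16, R 4.3.3), after filterByExpr by genotype (minimum count 10, minimum total 15). Differences between genotypes came from 1 model of the 3 genotypes, without a term for the line. Differences between lines came from 1 model of the 5 line groups. Tests were checked on simulated data. Genes were named by rule: the 10 largest falls, the 8 highest wild-type levels, 3 genes on each side of the limit, genes called between lines, genes the study names, and neighbours in the table. Members and lists were chosen with earlier results of these data known. Of the identifiers in the count table, 0 matched the reference table, so annotation lists and promoter motifs were not analysed here. The median library of 4800487 counts makes 3 counts less than 1 CPM in all libraries but 1 of *slscz-hr5*, and reads carry no molecular identifiers. The alternatives comprised DESeq2 1.42.0 and its size factors, the quasi-likelihood test of edgeR, library size alone, other filters, thresholds and pseudocounts, and fits without each library.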

Additional observations from a re-analysis of the deposited data

Results flagged for a closer look

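Among the named genes, the *slexo1* and the *slscz* libraries were searched for single values far from the rest, in 38 sets of 6 libraries, of which 2 stood out. Chance alone gives about 1 in 20. For Solyc02g089250 the library *slexo1-hr6* number 3 held 8.24 CPM and the next lowest *slexo1* library 13.98 CPM, a gap of 0.680 of the whole range on log2(CPM + 1). For Solyc02g086880 the library *slscz-hr5* number 2, the shallowest of the series, held 527 CPM and the next lowest *slscz* library 661 CPM, a gap of 0.628 of the range. Solyc09g091210 differed between the 2 *slexo1* lines by 0.55 on the log2 scale (adjusted p = 0.0281 by limma-voom), with all hr7 libraries below all hr6 libraries, and its cause was not tested.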

How the results depend on the processing

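The number of genes kept was 110 with TMM-normalized library sizes, 29 with a fall of at least 1 and 39 with *slscz* within 0.2 of wild type. It was 57 to 83 under the other pseudocounts, limits and filters. Without 1 library each it was 67 to 83. Restricting the rule to genes with whole counts, chosen after seeing the data, kept 52. Stricter limits keep fewer genes by construction, and for TMM the cause was not tested. Between the *slexo1* lines, 2 members were called with DESeq2, 0 in a fit of those 6 libraries and 0 to 2 without 1 library each. Between the *slscz* lines, 0 were called throughout. Calls of members lower in *slexo1* than in wild type numbered 58 to 66 across all alternatives. Deviations from the line means correlated over 0.1 in 9 of 18 pairs of same-numbered mutant libraries, namely in all 6 pairs of number 4 (0.12 to 0.42), 3 of 6 pairs of number 2 and 0 of 6 pairs of number 3, and in 2 of 36 pairs with different numbers. The number 4 libraries thus deviated together, but the numbers did not pair the libraries throughout and were not taken as pairs. With a replicate block over the 12 mutant libraries, 1 member was called between the *slexo1* lines, 0 between the *slscz* lines and 63 lower in *slexo1* than in *slscz*. Of the values of single named genes under all alternatives, 335 stayed within the spread between libraries or kept their call, 15 moved, mostly with a pseudocount of 0.5 or 5, and 6 lost the call, all of Solyc09g091210. The 335 include falls from wild type computed without 1 *slscz* library. Such falls use no *slscz* value and could not change, so they say nothing about stability. Genes of few counts limit the set, since their fall depends on the pseudocount. For Solyc03g093390 it was -3.17 with 0.5 and -1.30 with 5, beside -2.62.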
